A study of Mus musculus with 41 samples.

Results

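Mouse embryonic stem cells grown in serum and LIF (ESC-ser) were profiled for 2 modifications of histone H3, trimethylation of lysine 4 (H3K4me3) and trimethylation of lysine 27 (H3K27me3). Each annotated gene was classed by the peaks at its promoters, which were taken as 2000 bp on each side of every transcription start site (TSS) of the gene. A peak that shared 1 bp with a promoter counted. Of 53843 genes, 19636 carried at least 1 of the marks. These were 3629 genes with both marks (bivalent, 6.74% of all genes), 10172 with H3K4me3 only (18.9%) and 5835 with H3K27me3 only (10.8%), and 34207 genes had neither (63.5%).

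The series measured histone modifications by CUT&Tag, in which an antibody leads a transposase to cut and tag the DNA beside the modification, in 41 mouse samples. ESC-ser and ESC-2i are cultures of the same embryonic stem cell line, E14, grown with LIF in serum medium or in 2i medium, which holds inhibitors of MEK and GSK3. Each of H3K4me3 and H3K27me3 was profiled in 2 biological replicates of ESC-ser, and the authors pooled the coverage of replicates into 1 peak list per mark. The cells were untreated, and being a single established line they stand for 1 genotype. ESC were processed as whole cells and all other samples as nuclei. For comparison, the same marks were available in ESC-2i, gastrocnemius muscle (GAS) and post-ischemia macrophages (PIM), the last 2 from C57BL/6 mice, which the methods describe as females of the J substrain aged 8 to 12 weeks. H3K27me3 was also available in bone marrow-derived macrophages (BMDM), myoblasts (MB) and the myotubes differentiated from them (MT), and H3K18 lactylation (H3K18la) and H3K27 acetylation (H3K27ac) in ESC-ser. The ESC-ser H3K27ac list and the BMDM and MB lists came from 1 sample each.

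H3K4me3 is laid down at the start sites of active genes by COMPASS and MLL methyltransferases, which are drawn to unmethylated CpG-rich DNA. H3K27me3 is laid down by the Polycomb repressive complex PRC2 and is the best known mark of developmental genes that are kept silent. In embryonic stem cells many regulators of later development carry both marks at the same CpG-rich promoter, a state named bivalent, and active, silent and bivalent promoters can thus be told apart by these marks.

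The promoter sequences of representative genes are shown first, since the classes differ in the CpG content of their promoters. Each is the 300 bases from 250 before to 50 after a RefSeq start site, 5′ to 3′ on the strand of the gene (build GRCm38.p6, the mm10 assembly), with every CG dinucleotide in capitals. Pax6 and Hand2, regulators of eye and neural and of heart development, were bivalent. Pou5f1, the pluripotency factor also called Oct4, and the glycolytic enzyme gene Gapdh carried H3K4me3 only, Hoxb4 lay under the widest H3K27me3 peak of the list, and the olfactory receptor gene Olfr1 had neither mark. Gata4 (bivalent) and Actb (H3K4me3-only) had also been chosen and are named only.
Pax6: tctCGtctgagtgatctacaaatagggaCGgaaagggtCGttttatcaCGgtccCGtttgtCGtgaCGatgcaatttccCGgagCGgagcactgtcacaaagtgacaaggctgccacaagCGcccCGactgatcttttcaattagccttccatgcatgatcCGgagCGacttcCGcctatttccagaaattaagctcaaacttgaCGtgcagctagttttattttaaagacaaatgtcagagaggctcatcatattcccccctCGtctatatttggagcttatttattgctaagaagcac
Hand2: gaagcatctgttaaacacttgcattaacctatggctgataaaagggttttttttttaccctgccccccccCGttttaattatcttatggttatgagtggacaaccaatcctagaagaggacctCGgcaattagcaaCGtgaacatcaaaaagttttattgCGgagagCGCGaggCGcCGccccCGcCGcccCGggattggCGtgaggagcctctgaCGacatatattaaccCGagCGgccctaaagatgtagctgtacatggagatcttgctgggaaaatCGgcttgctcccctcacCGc
Pou5f1: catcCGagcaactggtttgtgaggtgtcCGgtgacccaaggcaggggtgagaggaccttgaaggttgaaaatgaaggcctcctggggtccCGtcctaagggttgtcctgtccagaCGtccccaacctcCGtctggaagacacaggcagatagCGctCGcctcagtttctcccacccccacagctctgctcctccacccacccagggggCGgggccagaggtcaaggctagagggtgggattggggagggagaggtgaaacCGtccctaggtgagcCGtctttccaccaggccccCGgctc
Gapdh: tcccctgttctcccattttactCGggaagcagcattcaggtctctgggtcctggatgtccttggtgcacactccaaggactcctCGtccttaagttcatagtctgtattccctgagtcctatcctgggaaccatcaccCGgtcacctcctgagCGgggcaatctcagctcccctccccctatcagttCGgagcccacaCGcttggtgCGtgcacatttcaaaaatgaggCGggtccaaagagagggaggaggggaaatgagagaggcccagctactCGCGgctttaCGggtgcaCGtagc
Hoxb4: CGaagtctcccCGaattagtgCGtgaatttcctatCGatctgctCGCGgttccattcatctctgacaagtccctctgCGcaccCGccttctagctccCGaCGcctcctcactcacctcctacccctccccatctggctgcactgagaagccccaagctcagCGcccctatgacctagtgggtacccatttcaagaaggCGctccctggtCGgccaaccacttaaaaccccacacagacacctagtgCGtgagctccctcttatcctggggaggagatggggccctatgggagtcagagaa
Olfr1: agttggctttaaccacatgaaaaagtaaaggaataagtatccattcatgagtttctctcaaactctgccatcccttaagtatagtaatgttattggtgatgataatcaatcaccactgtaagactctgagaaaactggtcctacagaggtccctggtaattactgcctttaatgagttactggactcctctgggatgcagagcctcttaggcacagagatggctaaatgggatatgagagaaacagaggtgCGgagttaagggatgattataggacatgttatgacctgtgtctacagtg

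The Pax6 sequence (chr2:105682213-105682512, plus strand) belongs to a start site 13563 bp inside the gene, and all 300 of its bases lay in peaks of both marks. The same was true of Hand2 (chr8:57320733-57321032, plus strand), whose start site is the 5′ end of the gene. These promoters held 16 and 17 CG dinucleotides. The Pou5f1 sequence (chr17:35505782-35506081, plus strand, 11 CG) and the Gapdh sequence (chr6:125165724-125166023, minus strand, 12 CG) lay wholly in H3K4me3, and the Hoxb4 sequence (chr11:96318017-96318316, plus strand, 14 CG) wholly in H3K27me3. The Olfr1 sequence (chr11:73399446-73399745, minus strand) held 1 CG.

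Over all RefSeq promoters of this length, bivalent and H3K4me3-only genes had the CpG-rich ones. Promoters of 20332 genes could be matched. The median number of CG dinucleotides was 20 in bivalent, 22 in H3K4me3-only, 8 in H3K27me3-only and 3 in unmarked genes, and 75.1%, 83.7%, 44.8% and 19.1% of the promoters held at least 10, against 51.9% of all promoters. CG reads the same on both strands. TATAAA, the letters of the TATA box, was found on either strand in 7.95% of bivalent, 5.98% of H3K4me3-only and 11.1% of H3K27me3-only promoters, against 20.6% in genes with neither mark and 12.6% of all promoters. CCAAT was found in 32.1%, 39.1%, 33.4% and 40.1% of the same classes and in 37.8% of all promoters. Among the sequences shown, TATAAA was in none and CCAAT in those of Hand2, Pou5f1 and Olfr1. A match describes the letters of the window and is not a bound site.

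CpG islands (CGI), called from the genome sequence, were also most frequent in the classes with H3K4me3, here with the bivalent genes first. An island lay at the promoter of 91.8% of bivalent genes (95% Wilson interval 90.9 to 92.7%), 86.7% of H3K4me3-only genes, 37.9% of H3K27me3-only genes and 5.92% of genes with neither mark, against 30.4% of all genes. Among protein-coding genes alone the shares were 94.4%, 91.8%, 52.7% and 17.7%. Within 500 bp of the 5′ end of the gene, the median ratio of observed to expected CpG was 0.680 in bivalent genes, slightly under the 0.738 of H3K4me3-only genes, while the GC content was higher in bivalent genes (61.1% against 58.4%). Seen from the islands, 2827 of 15766 (17.9%) were touched by both marks, 44.5% by H3K4me3 alone, 18.9% by H3K27me3 alone and 18.6% by neither.

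The lists of H3K4me3, H3K27me3 and H3K18la name the stem cells without their medium and were taken as ESC-ser because the serum samples' descriptions name a list of the same mark and ESC-2i has lists of its own. The cell type was checked on genes known to mark it, a check that cannot tell serum from 2i medium. Of 14 pluripotency factors, 10 had H3K4me3 only and 4 were bivalent, 13 carried H3K27ac and all 14 H3K18la. Of 10 markers of endoderm, mesoderm and neural cells, 9 were bivalent, Mixl1 had H3K27me3 only, 0 carried H3K27ac and 2 (Foxa2 and Pax6) carried H3K18la. H3K27me3 was thus found at all 10 differentiation markers. Every value below comes from 1 pooled list per mark, so the spread between replicates could not be measured, no test was run, and the intervals cover counting error over genes or peaks only. Neighbouring genes often share a peak, which makes these intervals too narrow. The lists come from bulk cultures, in which marks on the same nucleosomes cannot be told apart from marks in different cells, nor fewer marked cells from less of the mark per cell.

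Among the 21755 protein-coding genes 12.8% were bivalent, 36% had H3K4me3 only, 14.2% had H3K27me3 only and 37% neither. Protein-coding genes made up 76.7% of bivalent genes and 77.0% of H3K4me3-only genes but 53.1% of H3K27me3-only genes, of which 10.8% were lincRNA genes and 11.3% processed pseudogenes. Genes that carried H3K4me3 had more start sites to be marked at. The median was 3 in bivalent and 4 in H3K4me3-only genes, against 1 in the other classes.

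H3K27me3 was found at 26.3% (25.6 to 27.04%) of genes with H3K4me3, and H3K4me3 at 38.3% (37.4 to 39.3%) of genes with H3K27me3. These shares depend on how many peaks enter. With the 5000 peaks of largest total signal per mark they were 15.02% and 22.7%, and the bivalent share of all genes was 2.05%. With H3K27me3 reduced to as many bases as H3K4me3 they were 16.6% and 49.6%, and the bivalent share was 4.25%. In the full lists the number of bivalent genes was 1.50 times the number expected if the marks were placed independently. The ratio depended on which genes were counted. It was 0.970 over protein-coding genes and 0.810 over genes with a CGI, where H3K27me3 lay at 27.4% of genes with H3K4me3 and at 52.2% of genes without it. Among genes without a CGI it was 1.72. The marks thus met more often than independent placement gives over all genes and less often among CGI genes. In ESC-2i the same 4 ratios were 1.38, 1.02, 0.935 and 1.48.

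**Figure D1:**
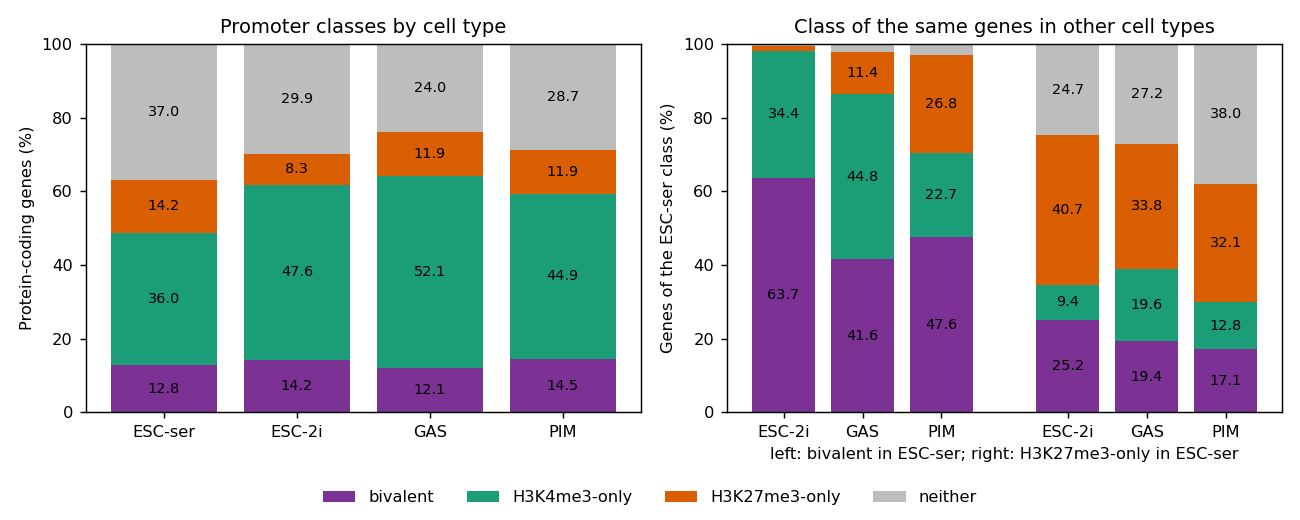
Left, share of the 21755 protein-coding genes (%) in each promoter class in ESC-ser, ESC-2i, GAS and PIM; right, class in ESC-2i, GAS and PIM (%) of the genes that were bivalent or H3K27me3-only in ESC-ser, all genes. Bivalent shares lie between 12.1 and 14.5% in all 4 cell types, while 63.7% of the ESC-ser bivalent genes were bivalent in ESC-2i and 41.6% in GAS.

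At most bivalent genes the marks lay on the same DNA. Both fell in the window of 1 TSS at 96.1% of bivalent genes, shared at least 1 base there at 92.8%, and covered a TSS together at 78.8%. The widest H3K4me3 peak of the gene lay wholly inside H3K27me3 at 49.2% of bivalent genes and shared no base with it at 9.95%. H3K27me3 was the wider of the marks at 72.3% of bivalent genes, with a median width of 5675 bp (interval 5507 to 5888 bp) against 3355 bp (3314 to 3408 bp) for H3K4me3. Over the genome, 8.65 Mb was covered by both marks in 3034 stretches. This was 21.1% of the H3K4me3 bases and 9.99% of the H3K27me3 bases, and 89.3% of the stretches lay at promoters.

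Among the longest stretches with both marks, that of 10392 bp on chromosome 10 covered promoters of Ndufa4l2, Shmt2 and Stac3, and that of 10334 bp on chromosome 9 was at Skor1, a neuronal corepressor gene. At Skor1 the H3K4me3 peak lay wholly inside an H3K27me3 peak of 22699 bp. The peak at Shmt2, the mitochondrial enzyme that makes glycine from serine, reached beyond H3K27me3, which covered 65.0% of it, and it carried H3K27ac.

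In 262 bivalent genes the marks shared no base within a promoter window. These genes had a median of 6 start sites, against 3 in the other bivalent genes, and 73.3% of them carried H3K27ac. The median gap between the gene's widest peak of each mark was 5521.5 bp, and smaller peaks can lie closer. Notch2 (a Notch receptor) and Mrps23 (a mitochondrial ribosomal protein) were of this kind, with far smaller gaps of 135 and 58 bp, fewer start sites (2 and 4) and, at Notch2, no H3K27ac. At other genes the widest peaks lay apart although smaller ones met. The H3K4me3 peak of Esrrb, an orphan nuclear receptor of naive pluripotency, was 13943 bp wide with a maximum signal of 439 and shared no base with its 10072-bp H3K27me3 peak, which held a smaller H3K4me3 peak at another start site. Fgfr2, Gse1 and Mast3 had wide H3K4me3 peaks (17959, 18849 and 17218 bp) of which 0% lay in H3K27me3.

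**Figure D2:**
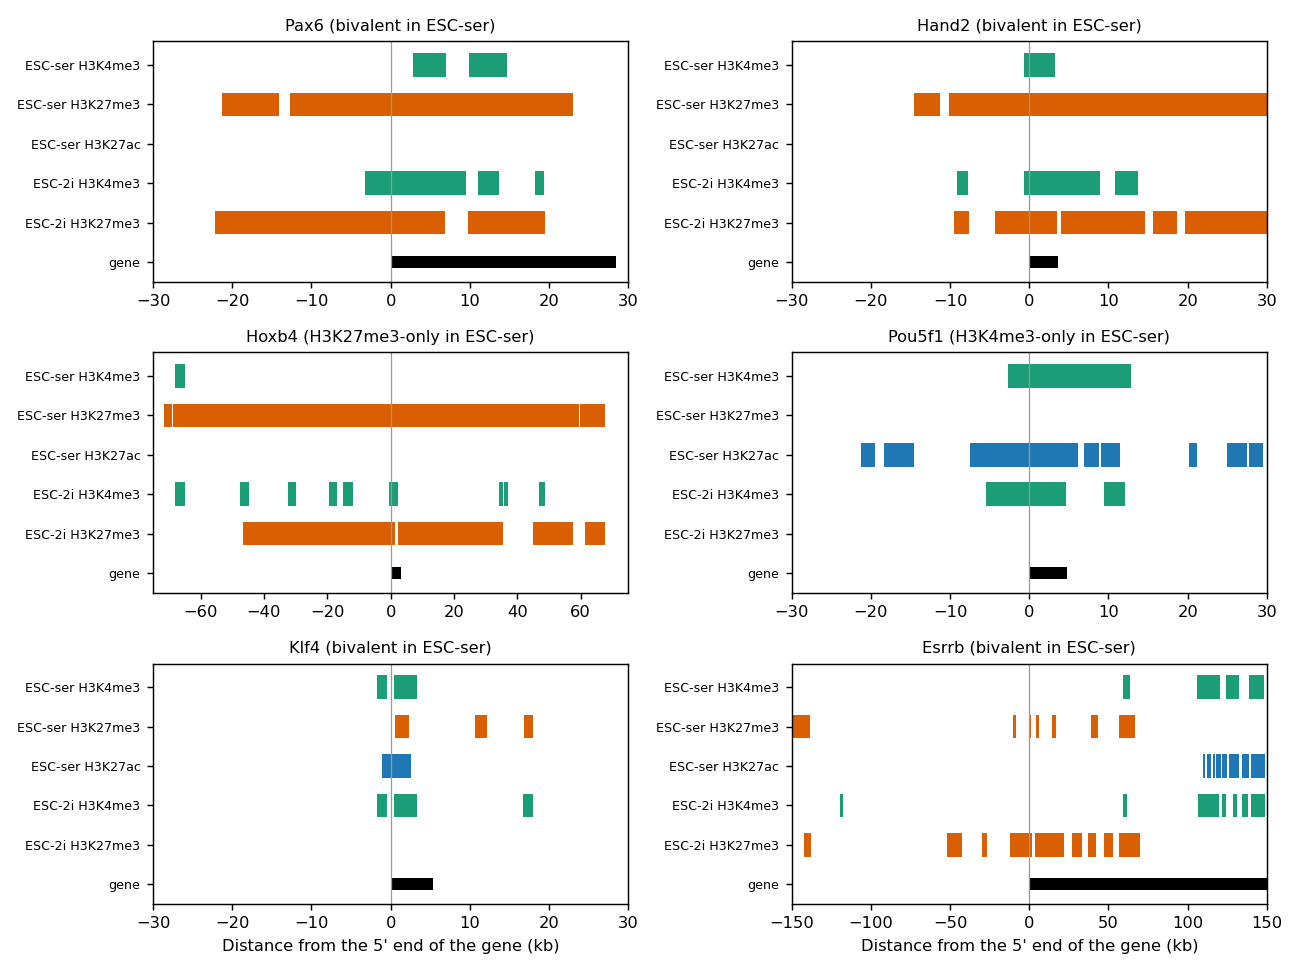
Peaks of ESC-ser H3K4me3, H3K27me3 and H3K27ac and of ESC-2i H3K4me3 and H3K27me3 around 6 genes, drawn in the direction of the gene; the x axis is the distance from the 5′ end of the gene in kb (the ranges differ), and the black bar is the gene. H3K4me3 lies inside H3K27me3 at Pax6 and Hand2, no ESC-ser H3K4me3 peak lies at the Hoxb genes while ESC-2i has several, and at Esrrb H3K4me3 with H3K27ac lies over 100 kb from the 5′ end.

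H3K4me3 peaks at bivalent promoters differed little in width from those at H3K4me3-only promoters. The median width was 3267 bp (3210 to 3317 bp) in 3046 peaks against 3248 bp (3210 to 3285 bp) in 6913 peaks, a ratio of 1.01 (0.977 to 1.03). Their signal was lower. The median of their maximum signal, the highest fragment coverage within a peak, was 253 (249 to 257) against 316 (312 to 320), a ratio of 0.801 (0.778 to 0.824). Peaks over 10 kb made up 1.28% of the bivalent and 1.63% of the H3K4me3-only group.

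H3K27me3 peaks were wider and higher where H3K4me3 was present. Their median width was 4228 bp (4076 to 4416 bp) in 3737 peaks at bivalent promoters, 2739 bp (2674 to 2797 bp) in 5580 peaks that reached H3K27me3-only genes alone, and 2043 bp (2029 to 2064 bp) in 15119 peaks away from promoters. The ratio of the first to the second was 1.54 (1.46 to 1.65), and that of the maximum signal 1.45 (81 against 56). A wide peak reaches more promoters and is then more likely to be classed as bivalent, so width is not independent of the class. With H3K27me3 reduced to its strongest peaks, up to the number of bases that H3K4me3 covers, the width ratio was 1.17 (1.08 to 1.24). Of promoter H3K27me3 peaks under 1000 bp 28.4% reached a bivalent gene and of those of 8000 bp or more 59.3%, and the bins between had 29.2, 34.9 and 45.8%. For H3K4me3 peaks of under 1000 (18 peaks), 1000 to 2000, 2000 to 4000, 4000 to 8000 and at least 8000 bp the share was 16.7, 25.0, 31.5, 31.0 and 27.5%.

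**Figure D3:**
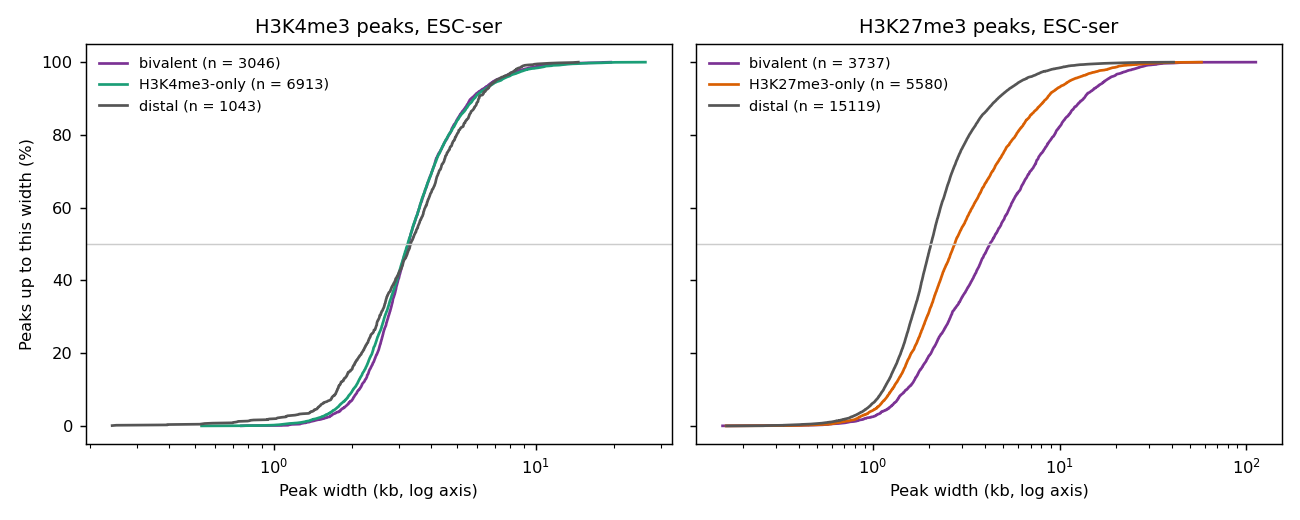
Cumulative share of peaks (%) up to each width (kb, log axis) for H3K4me3 (left) and H3K27me3 (right) in ESC-ser, split into peaks at bivalent promoters, at promoters of genes with that mark only, and distal peaks. The H3K4me3 curves of the promoter classes run together around 3.25 kb, while the H3K27me3 curves are ordered from distal over H3K27me3-only to bivalent, with medians of 2043, 2739 and 4228 bp.

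Most H3K27me3 peaks lay away from promoters and most H3K4me3 peaks at them. Of 24436 H3K27me3 peaks 61.9% were distal, and these held 46.1% of the H3K27me3 bases and 33.1% of the signal, while 9.48% of 11002 H3K4me3 peaks were distal. Distal H3K27me3 peaks overlapped a CGI in 3.94% of cases and a protein-coding gene in 38.7%, against 70.6% and 89.8% of the H3K27me3 peaks at bivalent promoters. Among the distal H3K4me3 peaks 27.4% overlapped H3K27me3, as did 85.7% of those at bivalent promoters.

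The widest H3K4me3 peaks of the H3K4me3-only class were at Trim71, an RNA-binding protein of stem cells (26249 bp), at Mllt6 (25896 bp) and over Rhof and Setd1b (23076 bp), the latter encoding an H3K4 methyltransferase. In the bivalent class, Kdm6b, an H3K27 demethylase, had the widest H3K4me3 peak (19368 bp), with 29.5% of it inside H3K27me3. Among bivalent protein-coding genes the widest H3K27me3 peaks were at Wnt3 (55737 bp), Cdkn1c, a cyclin-dependent kinase inhibitor gene (50840 bp), and Hand2 (45895 bp), and each held an H3K4me3 peak of 3845 to 4765 bp. Among H3K27me3-only protein-coding genes the widest peaks lay over Hoxb2 to Hoxb9 (112819 bp, a peak that also reached a bivalent lincRNA gene), Hoxd1, Hoxd3 and Hoxd4 (57694 bp) and Lmx1b, a limb and brain patterning factor (50921 bp).

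Marks of active chromatin in the same cells were most frequent in the H3K4me3-only class and intermediate in the bivalent class. H3K27ac, a mark of active promoters and enhancers, was found at 86.5% of H3K4me3-only genes, 35.3% of bivalent genes and 2.62% of H3K27me3-only genes, against 21.8% of all genes. H3K18la was found at 60.8%, 51.5% and 9.68% of the same classes, against 20.6% of all genes. Among bivalent genes H3K18la was thus more frequent than H3K27ac, and 22.9% of them (21.6 to 24.3%) carried H3K18la without H3K27ac, as did 4.05% of H3K4me3-only genes. The lists differ in size, with 82.4 Mb covered by H3K18la and 32.0 Mb by H3K27ac.

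The strength of H3K27me3 varied among bivalent genes. They were split into 4 groups of 895 to 918 genes by the maximum signal of their widest H3K27me3 peak. From the lowest group (up to 57) to the highest (over 194), the share with H3K27ac went from 58.7% (55.5 to 61.9%) over 43.1% and 24.6% to 14.5% (12.4 to 16.99%), and the share with H3K18la from 67.7% to 35.4%. H3K27me3 in ESC-2i, which the grouping did not use, was found at 32.6%, 56.9%, 78.2% and 92.6% of these groups, and H3K27me3 in all 5 of GAS, PIM, BMDM, MB and MT at 9.69%, 19.6%, 30.7% and 44.6%. The share with a CGI was 89.5 to 92.8% in every group and the median H3K4me3 width 3313 to 3539 bp, so these measures varied little. From the lowest to the highest group the median H3K27me3 width went from 2557 to 12096 bp. The share of genes whose marks shared a base in a promoter window went from 83.5% to 97.9%. Bivalent genes with H3K27ac had H3K27me3 peaks of 3931 bp in the median, against 6916 bp without H3K27ac.

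**Figure D4:**
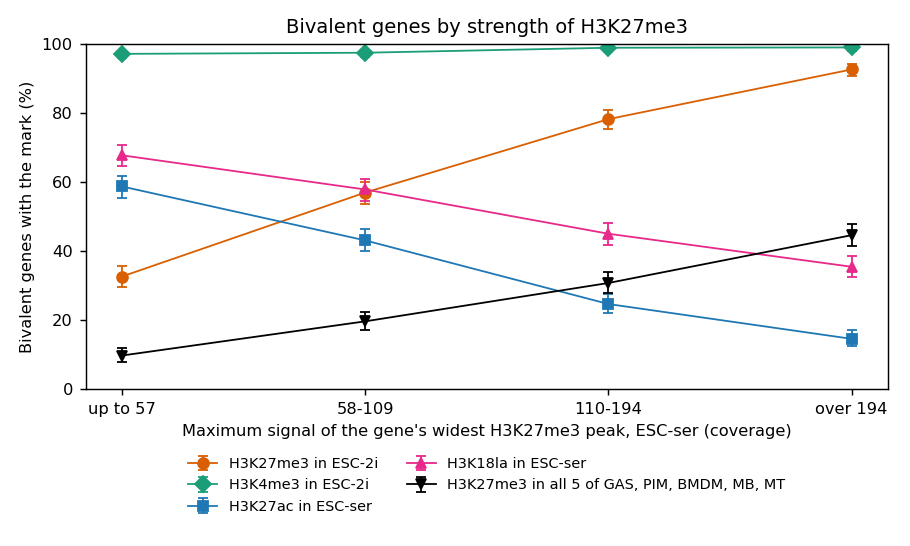
Share (%) of ESC-ser bivalent genes with another mark, in 4 groups by the maximum signal of the gene's widest H3K27me3 peak in ESC-ser (fragment coverage, x axis); points are shares and bars 95% Wilson intervals. H3K27me3 in ESC-2i goes from 32.6 to 92.6% while H3K27ac in ESC-ser goes from 58.7 to 14.5%, and H3K4me3 in ESC-2i stays above 97%.

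Gene lists were read against the protein-coding genes, of which 12.8% were bivalent, 36% had H3K4me3 only, 14.2% H3K27me3 only and 37% neither. Transcription factors that specify the germ layers were mostly bivalent. Of 30 such genes 19 were bivalent (63.3%), 9 had H3K27me3 only, Hnf4a and Tbx6 had neither mark, and 0 had H3K4me3 only or H3K27ac. Their H3K27me3 peaks were broad, with a median of 15537 bp over 28 genes, against 5675 bp over all bivalent genes. Their H3K4me3 peaks were less so, with 4148 bp over 19 genes against 3355 bp. Sox1, a marker of the neural plate, had an H3K4me3 peak of 4776 bp inside H3K27me3 of 32709 bp with a maximum signal of 873. Foxa2 (endoderm), T (mesoderm, also called brachyury) and Eomes (mesendoderm) had H3K27me3 peaks of 22869, 18863 and 16016 bp, and at each of them 100% of the H3K4me3 peak lay inside. Cdx2, the trophectoderm factor, was also bivalent, with 27156 bp of H3K27me3.

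In families of developmental transcription factors bivalent genes were again the largest class. Of 135 genes of the Pax, Sox, Gata, T-box, forkhead and Lhx, Nkx, Irx, Dlx and sine oculis homeobox families 79 were bivalent (58.5%, 50.1 to 66.5%), 34 had H3K27me3 only (25.2%) and 15 had H3K4me3 only (11.1%), against 12.8%, 14.2% and 36% of protein-coding genes. H3K18la was found at 36.3% and H3K27ac at 15.6%, against 20.6% and 21.8% of all genes. All 135 genes are protein-coding, against 40.4% of all genes, so these last shares are not a like reference. Members with H3K4me3 only included Sox2, Sox12 and Sox15. Sox2 is a core pluripotency factor, and its H3K4me3 peak of 3621 bp had a maximum signal of 464. Of the Gata factors, Gata2, Gata3, Gata4 and Gata6 were bivalent, Gata5 had H3K27me3 only (11056 bp) and Gata1, the erythroid factor, had neither. The 5 bivalent Pax genes included Pax2, Pax5, Pax6 and Pax9, while Pax1, Pax3, Pax4 and Pax7 had H3K27me3 only, Pax7 under a peak of 37623 bp.

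**Figure D5:**
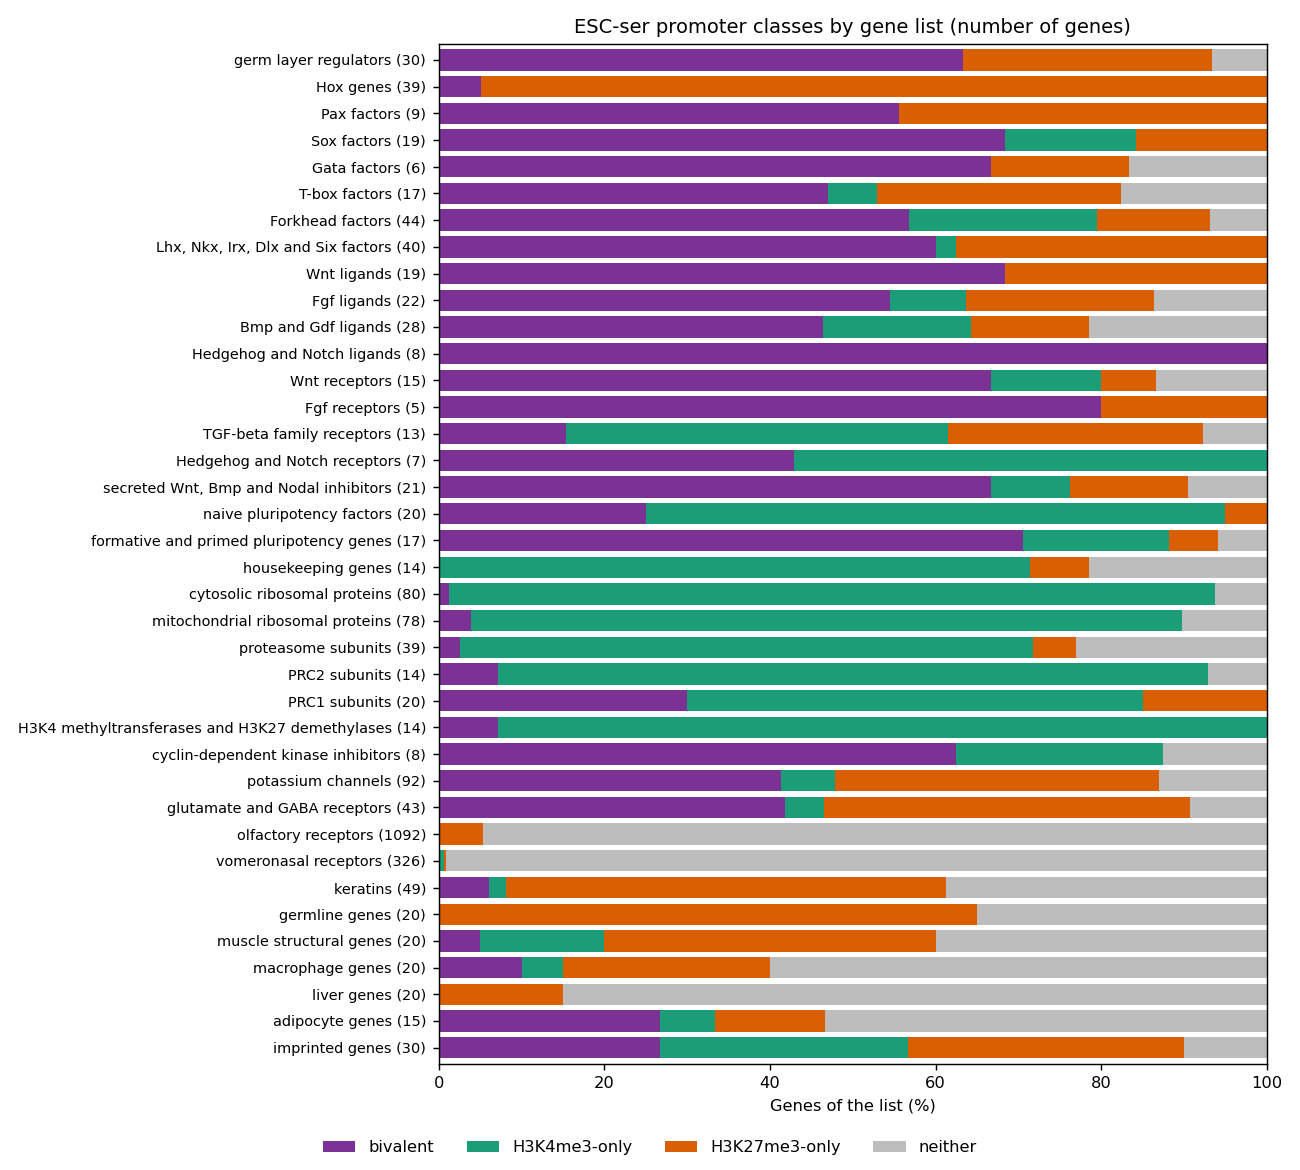
Share (%) of the genes of each of 38 lists in the 4 ESC-ser promoter classes, with the number of annotated genes of the list in brackets. Bivalent genes make up 63.3% of the germ layer regulators and 1.25% of the cytosolic ribosomal protein genes, Hox genes are H3K27me3-only in 94.9%, and chemosensory receptor genes have almost no mark.

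The Hox genes, which set position along the body axis, mostly had H3K27me3 without H3K4me3. Of 39 Hox genes 37 had H3K27me3 only and 2 were bivalent, although 36 have a CGI. H3K27me3 covered 95.4% of the Hoxa, 99.7% of the Hoxb, 97.3% of the Hoxc and 96.1% of the Hoxd cluster, while no H3K4me3 peak lay in the Hoxb or Hoxd cluster. Hoxc13 was bivalent, with the only H3K4me3 peak of the Hoxc cluster, which was 3185 bp wide with a maximum signal of 172. In ESC-2i 31 of the 39 genes were bivalent, 5 had H3K4me3 only and 3 H3K27me3 only, with 8 to 17 H3K4me3 peaks per cluster that covered 18.7 to 40.6% of it and H3K27me3 over 36.7 to 87.2%. The ESC-ser H3K4me3 list is the shorter one, with 11002 peaks against 19362 in ESC-2i, and its lowest total signal was 122245. The part of weaker H3K4me3 below the limit of the list was not tested. The lincRNA gene Gm53, at the edge of the H3K27me3 peak over Hoxb2 to Hoxb9, had an H3K4me3 peak and was bivalent. It was chosen after its values were seen.

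Secreted signals were mostly bivalent. Of 77 ligand genes 46 were bivalent (59.7%, 48.6 to 70.0%), 15 had H3K27me3 only (19.5%), 7 had H3K4me3 only (9.09%) and 9 had neither (11.7%), against 12.8%, 14.2%, 36% and 37% of protein-coding genes. All 8 genes for Hedgehog and Notch ligands were bivalent, among them Shh with 20095 bp and Dll1 with 21547 bp of H3K27me3. Of 19 Wnt genes 13 were bivalent and 6 had H3K27me3 only, with Wnt3 and Wnt6 (28789 bp) the broadest of the bivalent ones.

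The 7 ligands with H3K4me3 only included signals of the early embryo. Nodal, the TGF-beta family signal of the epiblast, had H3K4me3 over 10916 bp with a maximum signal of 494, and Fgf4, the signal that drives stem cells towards lineage commitment, 10958 bp with 575. Fgf17, Gdf1, Gdf3, Gdf9 and Gdf15 were in the same class, and all 7 carried H3K27ac and H3K18la. Fgf8 (15568 bp of H3K27me3) and Bmp7 (15002 bp) were bivalent, and Fgf5, a gene of the formative epiblast, had H3K27me3 only (7522 bp).

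Of 40 receptor genes 19 were bivalent (47.5%, 32.9 to 62.5%), against 12.8% of protein-coding genes, and 12 had H3K4me3 only, a share near the 36% of protein-coding genes. Of 15 Wnt receptor genes 10 were bivalent and of 5 Fgf receptor genes 4, with Fgfr4 having H3K27me3 only, while of 13 TGF-beta family receptor genes 2 were bivalent (Tgfbr1 and Tgfbr3, 15.4%, near the share of protein-coding genes) and 6 had H3K4me3 only. Notch1, Notch3 and Notch4 had H3K4me3 only. The widest H3K4me3 peak of Notch4 overlapped the 3′ end of the gene and not its 5′ end. Inhibitors of Wnt, Bmp and Nodal signals, most of them secreted, were bivalent in 14 of 21 cases (66.7%, against 12.8% of protein-coding genes). Among these were Nog (13973 bp of H3K27me3), a Bmp antagonist, and Sfrp1 (10255 bp), a Wnt antagonist, while Cer1 and Dkk4 had neither mark.

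Genes of naive pluripotency had H3K4me3 without H3K27me3 in 14 of 20 cases (70%, against 36% of protein-coding genes). Pou5f1 had the widest peak of those with values given here, 15563 bp with a maximum signal of 813, and Zfp42, also called Rex1, a narrow and high one of 2755 bp with 930. Nanog had H3K4me3 over 5857 bp and no CGI. Klf4, Nr5a2, Tbx3, Prdm14 and Esrrb were bivalent, and Dppa3 had H3K27me3 only (5023 bp). The maximum signal of H3K27me3 was 36 at Klf4, 42 at Nr5a2 and 86 at Tbx3, below the median of 109 over all bivalent genes, and 113 at Prdm14 and 154 at Esrrb, above it. At Dppa3 it was 270, in a peak that ended upstream of the annotated gene, and the promoter carried H3K27ac and H3K18la. At Klf4 the H3K27me3 peak was 1782 bp wide, overlapped the H3K4me3 peak and lay at a promoter with H3K27ac.

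In ESC-2i, the medium that favours the naive state, 19 of the 20 genes had H3K4me3 only and Esrrb alone was bivalent. Genes of the formative and primed states were bivalent in 7 of 17 cases in ESC-2i and in 12 of 17 in ESC-ser. The latter (70.6%, against 12.8% of protein-coding genes) included Otx2, Pou3f1, Lef1 and Zic2. The H3K27me3 peak of Pou3f1, also called Oct6, was 18067 bp, that of Lef1, a mediator of Wnt signals, 16496 bp, that of Zic2 8196 bp and that of Otx2 4875 bp. Zic2 and Lef1 had H3K4me3 only in ESC-2i.

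Genes of general cell functions had H3K4me3 only. Against 36% of protein-coding genes, this was so for 74 of 80 cytosolic and 67 of 78 mitochondrial ribosomal protein genes. It was also so for 27 of 39 proteasome subunit genes and 10 of 14 housekeeping genes. Few of these genes were bivalent, with H3K27me3 of varied strength. Rps14 was the single bivalent cytosolic ribosomal protein gene, with an H3K27me3 peak of 2302 bp and a maximum signal of 22 that shared no base with its widest H3K4me3 peak. The maximum was 25 at Mrps24, but 155 at Mrps23 and 223 at Mrpl34, above the median of 109 over bivalent genes. Psmb8 and Psmb9, subunits of the immunoproteasome, lay under an H3K27me3 peak of 21764 bp with a maximum of 364, and Psmb9 had H3K4me3 as well. B2m, which is needed for antigen presentation, had H3K27me3 only, with a low maximum of 38. Hprt and Gusb had neither mark in ESC-ser, and Hprt had no H3K4me3 peak in ESC-2i.

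The genes for the chromatin complexes themselves differed. Of 14 PRC2 subunit genes 12 had H3K4me3 only, among them Eed, Jarid2, Mtf2 and Epop, Phf19 was bivalent and Phf1 had neither. Of 14 genes for H3K4 methyltransferases and H3K27 demethylases 13 had H3K4me3 only and Kdm6b was bivalent. PRC1 genes were more mixed, with 11 having H3K4me3 only (55%), 6 bivalent (30%) and 3 (Bmi1, Phc2 and Yaf2) with H3K27me3 only (15%). Among protein-coding genes 36% had H3K4me3 only, 12.8% were bivalent and 14.2% had H3K27me3 only, the last share near that of PRC1 genes. Bmi1 lay under 10258 bp of H3K27me3 with a maximum signal of 299 and had H3K4me3 only in ESC-2i. Among cyclin-dependent kinase inhibitors Cdkn2a, Cdkn2b, Cdkn2c and Cdkn1c were bivalent, and Cdkn1b had H3K4me3 only. The H3K27me3 peak of Cdkn2a, a gene of cellular senescence, was 15848 bp wide with a maximum of 397, and the gene had H3K4me3 only in ESC-2i.

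Potassium channel genes and glutamate and GABA receptor genes were mostly in the classes with H3K27me3. Of 92 potassium channel genes 38 were bivalent (41.3%) and 36 had H3K27me3 only (39.1%). Of 43 glutamate and GABA receptor genes these were 18 (41.9%) and 19 (44.2%), against 12.8% and 14.2% of protein-coding genes. In ESC-2i 59 of the potassium channel genes were bivalent. Kcna2 and Kcnj4 were bivalent under H3K27me3 of 21437 and 29386 bp, and Gabbr2, a GABA-B receptor gene, had H3K27me3 only over 20040 bp.

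Of 75 muscle, macrophage, liver and adipocyte genes 45 had neither mark (60.0%, 48.7 to 70.3%, against 37% of protein-coding and 63.5% of all genes). Another 18 had H3K27me3 only (24%, against 14.2% of protein-coding genes) and 7 were bivalent (9.33%, against 12.8%). The bivalent ones included Cebpa and Pparg, regulators of fat cells, and Acta1, skeletal actin. Alb, Apoa1 and Adipoq had neither. Of 1092 olfactory receptor genes 1034 had neither mark, 57 had H3K27me3 only and Olfr641 was bivalent, with maximum signals of 215 for H3K4me3 and 29 for H3K27me3. Of 326 vomeronasal receptor genes 323 had neither. Keratin genes differed from these, with 26 of 49 having H3K27me3 only (53.1%, against 14.2% of protein-coding genes). So did germline genes, with 13 of 20 having H3K27me3 only (65%) and 0 having H3K4me3. The germline group included Piwil1, Tdrd1 and Sycp1, whose H3K27me3 peaks were 6589, 2672 and 2630 bp wide with maxima of 59, 72 and 91, against a median of 67 over all H3K27me3-only genes.

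Of 30 imprinted genes, which are expressed from 1 parental allele, 8 were bivalent (26.7%), 9 had H3K4me3 only (30%), 10 H3K27me3 only (33.3%) and 3 neither (10%). The shares of protein-coding genes were 12.8%, 36%, 14.2% and 37%, so the share with H3K4me3 only was near that of protein-coding genes. Peaks on opposite alleles cannot be told apart from peaks on the same allele in these data. Grb10 had H3K27me3 over 49626 bp and Kcnq1 over 20602 bp. At Gnas 17.7% of an H3K4me3 peak of 17985 bp lay in H3K27me3.

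The ESC-ser classes were compared with those of the same genes in the other cell types. Bivalent genes made up 7.54% of all genes in ESC-2i, 6.6% in GAS and 7.95% in PIM. Of the 3629 genes bivalent in ESC-ser 63.7% (62.1 to 65.3%) were bivalent in ESC-2i and 34.4% had H3K4me3 only. H3K4me3 was missing in ESC-2i at few of them, with 1.32% having H3K27me3 only and 0.551% neither mark. In GAS 41.6% were bivalent, 44.8% had H3K4me3 only and 11.4% H3K27me3 only, and in PIM 47.6%, 22.7% and 26.8%. All 4 cell types had 694 of the genes as bivalent (19.1%), and 614 (16.9%) were bivalent in ESC-ser and in none of the others.

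The genes bivalent in all 4 cell types included 12 of the 30 germ layer regulators, among them Gata4, Gata6, Sox17, Foxa2, Eomes, Pax6 and Hand2. The ligand genes of this kind included Wnt6, Wnt11, Fgf9, Gdf6, Dll4 and Ihh. None of the 39 Hox genes or the 20 naive pluripotency factors was bivalent in all 4.

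H3K4me3-only genes were the most constant, with 77.9% in this class in all 4 cell types, and H3K27me3-only genes the least, with 8.21%. Of the 10172 H3K4me3-only genes 95.6% had H3K4me3 only in ESC-2i, 89.5% in GAS and 82.4% in PIM. Pou5f1, Nanog, Fgf4 and Trim71 had H3K27me3 only in both GAS and PIM, and Sox2 was bivalent in GAS and had H3K27me3 only in PIM. H3K27me3-only genes had H3K4me3 as well in ESC-2i in 25.2% of cases (24.1 to 26.3%). This was 51.5% for the 2213 H3K27me3-only genes with a CGI and 9.14% for the 3622 without one. The former had wider H3K27me3 peaks (5145 against 2806 bp in the median) and higher ones (116 against 49), and 26.2% of them had H3K27me3 in all 5 of GAS, PIM, BMDM, MB and MT against 10.2%.

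Bivalent genes that had H3K4me3 only in ESC-2i were those with less H3K27me3 in ESC-ser. Their widest H3K27me3 peak was 3281 bp in the median with a maximum signal of 60, against 7539 bp and 154 for genes bivalent in both media. H3K27ac was found at 52.0% of the former and 26.5% of the latter. The H3K4me3 width differed little (3330 against 3361 bp). The H3K27me3 list of ESC-2i held 24613 peaks over 145 Mb, against 24436 peaks over 86.6 Mb in ESC-ser, but reached fewer promoters, with 8857 against 9464 genes and 4121 against 5545 CGI genes. The part of these differences between the lists was not tested.

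In ESC-ser the X chromosome had fewer marked genes than the autosomes. It held 4.85% of all genes but 0.827% of bivalent, 1.45% of H3K4me3-only and 3.46% of H3K27me3-only genes. Among protein-coding genes with a CGI, H3K4me3 was found at 34.1% (29.4 to 39.1%) of 361 X-linked and 77.5% (76.7 to 78.2%) of 12510 autosomal genes in ESC-ser. In ESC-2i these shares were 74.8% and 93.7%, and 2.87% of H3K4me3 peaks lay on the X against 1.39% in ESC-ser. H3K27me3 lay at 26.0% of these X-linked and 33.3% of the autosomal genes in ESC-ser, and the X held 527 H3K27me3 peaks in ESC-ser and 219 in ESC-2i. On autosomes the bivalent share of protein-coding genes in ESC-ser ranged from 9.10% on chromosome 7 to 18.7% on chromosome 11, and on the X it was 2.11%. Among the protein-coding genes with a CGI, GAS had H3K4me3 at 86.4% of X-linked and 91.9% of autosomal genes, and PIM at 75.1% and 84.9%. H3K27me3 was found at 36.3% and 22.7% of these genes in GAS, more often on the X, and at 28.5% and 33.6% in PIM.

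The classes depend on the promoter windows at their edge in few cases. At 46 bivalent genes (1.27%) a mark reached into the window by under 200 bp, and at 26 H3K4me3-only genes (0.256%) an H3K27me3 peak began under 200 bp beyond it. The stringent calling kept the strongest 1% of regions of each track, ranked by total signal, and the lowest total signal was 122245 in the H3K4me3 list and 13985 in the H3K27me3 list. A missing peak means only that no region passed the limit of the list.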

How the data were processed

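CUT&Tag reads of each sample had been trimmed with Trim Galore 0.6.6, aligned to mm10 with Bowtie2 2.4.4 and handled with SAMtools 1.13 and bedtools 2.30 by the authors. The deposited peak lists hold total signal and maximum signal, that is summed and highest fragment coverage, which the authors obtained by combining the replicates' coverage and calling peaks with SEACR 1.3 (stringent, top 1% of regions). The caller tends to join neighbouring smaller peaks into 1, which affects widths. The signal is not scaled for depth and was compared within a list only. Library depth cannot be read from the lists, and reads carry no molecular identifiers.

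Here, peaks on chromosomes 1 to 19 and X were joined to GENCODE vM21 genes (53843 genes, 130677 distinct TSS) by 1 bp of overlap with TSS ± 2000 bp. CpG islands were called from the GRCm38 sequence (at least 200 bp, GC of 50%, observed over expected CpG of 0.6). Promoter sequences came from RefSeq, whose symbols matched 37.9% of the genes and 75.6% of the protein-coding ones. Shares have 95% Wilson intervals and medians 95% order-statistic intervals, for counting error only. With 1 pooled list per mark no test across replicates could be made. Classes were checked with bedtools 2.31.1, with 0 genes classed otherwise. Python 3.11.15, numpy 2.4.6, pandas 2.3.3, scipy 1.17.1 and matplotlib 3.10.9 were used.

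The gene lists (38), the classes and the rule for named genes were chosen with earlier results of these data known. Named were up to 4 members of the most common class of each list by total signal, all members of another class with 5 or fewer, protein-coding genes at the 5 widest peaks of each mark and class and at the 3 longest stretches with both marks, and the genes whose promoter is shown. Hand2 and Gapdh replaced genes without a table entry afterwards. Other genes of the lists are named as class members only, and a few genes that the rule names are not reported here. Bmp1 and Bmp2k, a protease and a kinase, are not in the ligand list. The alternatives tried were a 1000 bp window, protein-coding genes, 200 bp of overlap, marks at 1 TSS, a shared base, 5000 peaks per mark, fewer H3K27me3 bases, no top 1% peaks, and merged promoters. No column of values was left without a sample.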

Additional observations from a re-analysis of the deposited data

Results flagged for a closer look

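The mitochondrial genome and the Y chromosome were not used for the classes, but both ESC-ser lists hold peaks there. On the mitochondrial genome the highest maximum signal was 191 in H3K4me3 (2 peaks) and 47 in H3K27me3 (3 peaks), and on the Y chromosome it was 2287 in H3K4me3 (4 peaks) and 1062 in H3K27me3 (11 peaks). The medians over the peaks used were 289 and 43. They are listed because they lie outside the comparisons. Every called peak exceeds 3 counts by the way peaks were called (the lowest maximum was 63 and 10), so being above that level says nothing more, and the mitochondrial H3K4me3 maximum lay below the median of its list. No control antibody track was analysed here. The peaks hold 0.0252% and 0.100% of the H3K4me3 signal and 0.00895% and 0.0607% of the H3K27me3 signal of the lists. The signal is fragment coverage that is not scaled for depth.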

How the results depend on the processing

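The bivalent share of all genes (6.74%) was 6.27% with a 1000 bp window, 12.8% over protein-coding genes, 6.48% with both marks at the same TSS, 6.25% with a shared base, 2.05% with the 5000 strongest peaks per mark, 4.25% with H3K27me3 reduced to as many bases as H3K4me3, 6.49% without the top 1% of maximum signals and 4.52% over merged promoter regions. The bivalent share of H3K4me3 genes (26.3%) was 25.3% with the 1000 bp window and with the same TSS, 24.4% with a shared base, 15.02% with 5000 peaks, 16.6% with reduced H3K27me3 and 27.5% over merged regions. The bivalent share of H3K27me3 genes (38.3%) was 47.3% over protein-coding genes, 36.9% with the same TSS, 35.6% with a shared base, 22.7% with 5000 peaks, 49.6% with reduced H3K27me3 and 31.7% over merged regions. The H3K27me3 width ratio (1.54) was 1.34 over protein-coding genes, 1.17 with 5000 peaks, 1.17 with reduced H3K27me3 and 1.69 over merged regions, and stayed above 1 under all 9 alternatives. The H3K4me3 width ratio ranged from 0.994 to 1.02 over the 9 alternatives. The counts under 5000 peaks and reduced H3K27me3 are lower by construction, since fewer peaks enter. The cause of the other differences was not tested. No paired analysis was possible because the replicates of each mark are pooled in 1 list, and for the same reason no replicate could be left out in turn. A gene without a peak may carry the mark below the limit of the list.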
